A study of Mus musculus with 6 samples.

Results

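Cells of the embryonic mouse cortex were sorted after electroporation with a plasmid for miR-3607 or for a scrambled hairpin. The groups were compared in 35 genes of glycolysis and of the response to low oxygen. These genes were taken from a fixed list of symbols, and all 35 were matched to an Ensembl identifier among the 54146 genes of the count tables. They fall into 4 transporters of glucose or lactate, 8 enzymes of the upper part of glycolysis, 2 enzymes that set the level of fructose 2,6-bisphosphate, 7 enzymes of the lower part, 5 genes that decide the fate of pyruvate, 3 genes of oxygen sensing and 6 further targets of hypoxia. All 35 had enough reads to be tested.

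The Mir group had 3 libraries, from cortex electroporated in utero at E14.5 (embryonic day) with psil-pre-miR3607 at 1 µg/µl, which drives the precursor of miR-3607 from a U6 promoter. The Scr group had 3 libraries, treated alike with psil-pre-miRScr, which drives a scrambled hairpin from the same promoter. In both groups pCAG-GFP at 0.7 µg/µl was electroporated together with the hairpin plasmid, and cells with green fluorescence were sorted 24 hours later, at E15.5. Each library held the sorted cells of 2 embryos, and the 3 libraries of a group were independent pools, so the spread behind each p-value is that between pools of embryos. The strain is uncertain, since the protocol names ICR mice and the sample characteristics C57BL/6. Cells were selected by GFP, and no feature of the count tables measures the hairpin or GFP. Transcripts of endothelial and erythroid marker genes were read as well, at levels that differed between libraries. The purity of the sort and the dose of miR-3607 per library are thus not known here. Mir replicates 1, 2 and 3 held 15847663, 15674262 and 14671557 counts in genes, and Scr replicates 1, 2 and 3 held 12724511, 13960806 and 16684038. Levels are given as CPM (counts after scaling all libraries to the same size), and only levels per kb of exon are compared between genes.

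Glycolysis splits glucose into pyruvate, which is either reduced to lactate or passed into mitochondria as acetyl-CoA. Proliferating neural progenitors of the embryonic cortex are known for high glycolysis and lactate production, and neurons for a greater use of mitochondrial respiration. When oxygen is low, the prolyl hydroxylases encoded by Egln1 and Egln3 stop marking HIF-1α (encoded by Hif1a) for degradation, and the factor then activates genes of glucose uptake, glycolysis, lactate export, mitochondrial restraint and vessel growth. Because HIF-1α is controlled mainly as a protein, its transcript can stay level while its targets move, and the targets are read in its place.

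The matches of the microRNA to these genes are shown first, because a microRNA acts through its seed, bases 2 to 8 from the 5′ end. The strand below was read from the hairpin oligonucleotide as the segment after the loop, with the seed in capitals.
miR-3607 strand: gCAUGUGAugaagcaaaucagu

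The 3′ untranslated region of each gene's transcript of longest coding sequence (GENCODE M21, GRCm38) was searched for the reverse complement of bases 2 to 8 (TCACATG) and for that of bases 2 to 7 followed by A (CACATGA). An 8mer holds both. Of the 35 genes, 6 held a match (17.1%), against 2197 of 12711 tested genes with such a region (17.3%). Matched bases are in capitals, and the first 2 sequences below are the 8mers.
Ankrd37: ctttggctcaTCACATGAtgaaactcct
Pdha1: ttttaagtatTCACATGAaaacaaccct
Hk2: ttggagcagacCACATGAagcatcgaga
Aldoc: atctcacatcTCACATGccttacattgc
Tpi1: ctcccaccggTCACATGcttctgatgac
Slc16a3: gcagcagcagTCACATGcatcctgggag

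As a group the 35 genes showed no common direction. At an adjusted p under 0.05 in edgeR's quasi-likelihood test (Benjamini-Hochberg over 16897 genes), 0 of the 35 were called, where 0.00592% of all genes tested were called. limma-voom called 0 of the 35 as well, and 0% of all genes. DESeq2 called 1 of the 35, Ankrd37, lower in Mir, where it called 4.37% of genes (2.51% lower and 1.86% higher). At an unadjusted edgeR p under 0.05, 2 of the 35 were higher (Egln3 and Vegfa), against 6.57% of all genes tested, and 1 was lower (Ankrd37), against 7.93%. Mean levels were higher in Mir for 18 of the genes and lower for 17. The median log2 fold change, Mir over Scr, was 0.00 over the 35 and -0.01 over all genes tested, and single values ran from -0.93 for Ankrd37 to 0.62 for Egln3. The log2 fold change lay within 0.5 of zero for 31 of the 35 (88.6%), against 80.9% of all genes tested, and its 95% interval lay within 1 of zero for 26 (74.3%), against 67.4%. So for those 26 genes a change of 2-fold or more in either direction lay outside the interval.

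For 5 of the 35 genes, 14.3%, no Mir library fell within the range of the 3 Scr libraries and all 3 were on the same side of it, against 20% of all genes tested. Egln3 and Vegfa lay above (9.72% of all genes tested) and Ankrd37, Hilpda and Pdha1 below (10.3%). The share is not above that of all genes, and the values of these 5 are given with their roles below.

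**Figure D1:**
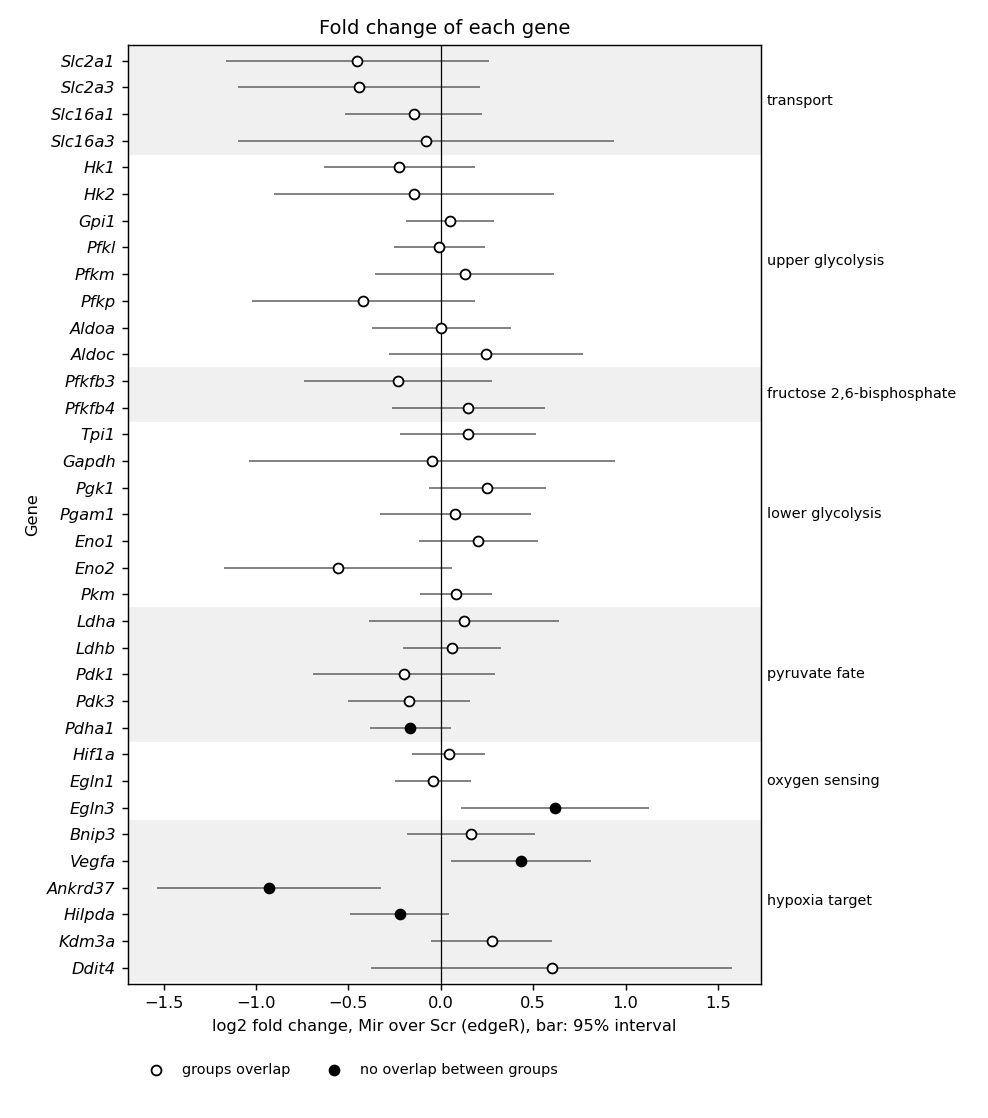
Log2 fold change of each of the 35 genes, Mir over Scr, from edgeR on the horizontal axis, with bars for the 95% interval and rows grouped by role. Filled points mark the 5 genes whose Mir and Scr libraries do not overlap. Intervals leave out zero for Egln3 and Vegfa on the right and Ankrd37 on the left, and 0 genes passed the adjusted threshold.

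Genes of oxygen sensing parted into a pair at nearly equal levels in both groups and Egln3. The level of Hif1a was 239, 226 and 222 CPM in Mir replicates 1, 2 and 3 and 240, 217 and 210 CPM in Scr replicates 1, 2 and 3, a log2 fold change of 0.04 ± 0.09 (SE) with a 95% interval of -0.16 to 0.24. The 2 groups interleave, and the interval leaves room for a difference of at most 0.24 on the log2 scale. Egln1, the main prolyl hydroxylase that marks HIF-1α under normal oxygen, averaged 132 ± 4.73 CPM in Mir and 136 ± 9.71 CPM in Scr (SD, n = 3 each), a log2 fold change of -0.04 ± 0.09. Egln3 (ENSMUSG00000035105, chromosome 12, 54178981 to 54203860, minus strand, GRCm38) encodes the prolyl hydroxylase that is itself induced by HIF. Its level was 12.5, 12.6 and 13.0 CPM in the 3 Mir libraries, against 6.70, 7.39 and 10.7 CPM in the 3 Scr libraries. The Mir libraries were nearly equal to each other and all above the highest Scr library, Scr replicate 3. The log2 fold change was 0.62 ± 0.22 (edgeR adjusted p = 0.283, DESeq2 adjusted p = 0.168).

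Targets of hypoxia did not share a direction, with 4 of 6 higher and 2 lower by mean. Vegfa (ENSMUSG00000023951, chromosome 17, 46016993 to 46032369, minus strand) encodes the growth factor that draws vessels into the cortex. It was at 97.1, 86.2 and 117 CPM in Mir, against 79.1, 83.9 and 59.6 CPM in Scr, a log2 fold change of 0.44 ± 0.16 (edgeR adjusted p = 0.299). The lowest Mir library stood only just above the highest Scr library. Kdm3a, a histone demethylase induced by HIF, was at 158, 179 and 138 CPM in Mir and 131, 150 and 111 CPM in Scr (log2 fold change 0.28 ± 0.14, edgeR adjusted p = 0.413). Here the groups overlapped, since Mir replicate 3 lay below Scr replicate 2.

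Ankrd37 (ENSMUSG00000050914, chromosome 8, 45996902 to 46005707, minus strand) encodes an ankyrin repeat protein and is a direct HIF-1 target. It was at 6.23, 6.26 and 6.72 CPM in Mir, from 98, 98 and 99 counts, against 9.58, 16.9 and 10.1 CPM in Scr, from 123, 234 and 168 counts. All 3 Mir libraries were close to each other and below every Scr library, and Scr replicate 2 stood well above the other two. The log2 fold change was -0.93 ± 0.26, a ratio of 0.525, with an adjusted p of 0.227 in edgeR and 0.0472 in DESeq2. The DESeq2 adjusted p was 0.0314 without Scr replicate 1, the 1 refit that kept the call. It was 0.221 without Mir replicate 1, 0.280 without Mir replicate 2, 0.0756 without Mir replicate 3, 0.0886 without Scr replicate 3 and 0.374 without both Scr replicate 2 and Mir replicate 3. DESeq2 gave no adjusted p without Scr replicate 2 alone, where its log2 fold change was -0.63. Of the 50-base words in the main Ankrd37 transcript, 11.4% also occur in another annotated gene, mainly its neighbour Lrp2bp, so reads from there are uncertain.

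Hilpda, which encodes a lipid droplet protein induced by hypoxia, was at 32.5, 31.2 and 28.2 CPM in Mir and 33.1, 36.7 and 37.2 CPM in Scr (log2 fold change -0.22 ± 0.12, edgeR adjusted p = 0.422). The gap between the nearest libraries, Mir replicate 1 and Scr replicate 1, was under 1 CPM. Bnip3, a mitophagy receptor, was at 51.3, 48.6 and 37.3 CPM in Mir and 39.7, 37.3 and 45.6 CPM in Scr (0.16 ± 0.15), with full overlap. Ddit4, an inhibitor of mTORC1 that also answers to stress other than hypoxia, was at 18.2, 57.5 and 38.5 CPM in Mir and 23.1, 35.3 and 17.0 CPM in Scr. It varied 3.16-fold among Mir libraries and 2.08-fold among Scr libraries, more than the 2 groups differed from each other (log2 fold change 0.60 ± 0.42, edgeR adjusted p = 0.542).

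**Figure D2:**
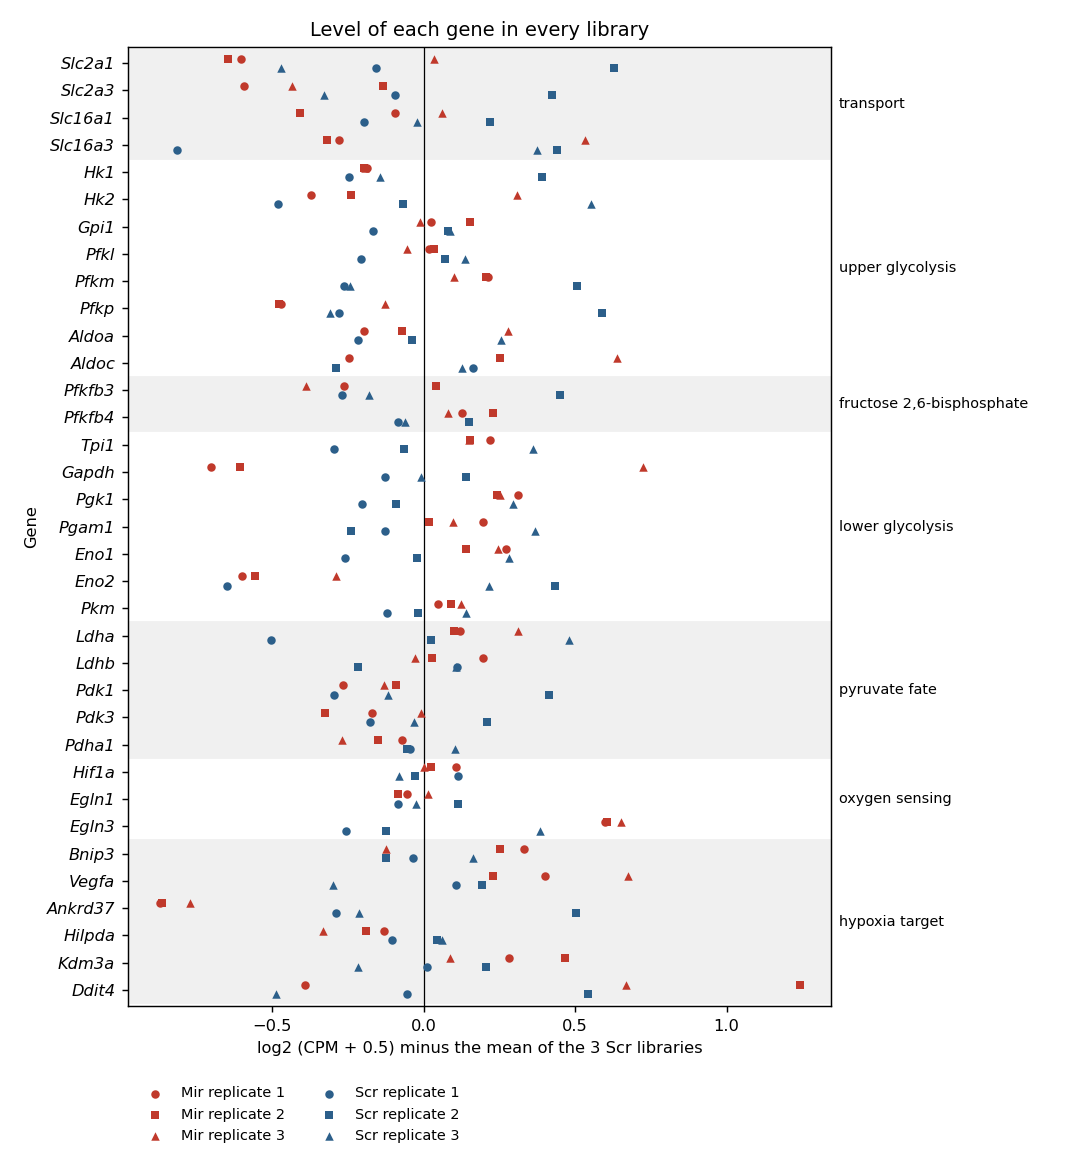
Level of each of the 35 genes in every library, as log2 (CPM + 0.5) minus the mean of the 3 Scr libraries, with rows grouped by role and red symbols for Mir and blue for Scr. Red symbols sit tightly together for Egln3, Ankrd37 and most enzymes of lower glycolysis, and the blue circle (Scr replicate 1) is the leftmost symbol in 17 rows.

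The promoters of these genes were searched for the core of the hypoxia response element, ACGTG or GCGTG, on both strands (CACGT or CACGC on the other), with overlapping matches counted as 1. RefSeq windows (GRCm38.p6) of 250 bases before to 50 after a start were available for 34 of the 35 genes, all but Slc2a3. A core was found in at least 1 window of 31 of the 34 (91.2%), against 67.4% of tested genes with a window and 46.7% of all genes with one. Per window, the shares were 78.4% for these genes and 61.3% for tested genes. The list was made of glycolysis and hypoxia response genes and base content was not matched, so no conclusion is drawn from the excess. Pdha1, which also lay apart between the groups, held 4 cores in its window and is not shown. The stretches below are a selection, 1 or 2 per gene, from genes that lay apart between the groups or are textbook HIF targets. They have the core in capitals and are written along the gene's own strand.
Egln3 chr12:54204089-54204113, minus strand: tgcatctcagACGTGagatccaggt
Ankrd37 chr8:46000077-46000100, minus strand: cccagcagtACGTGcctagctcgg
Ankrd37 chr8:45999851-45999866, minus strand: gtgtttgggtACGTGa
Hilpda chr6:29272573-29272597, plus strand: tggccagcggACGTGccccagggcg
Pgk1 chrX:106186940-106186964, plus strand: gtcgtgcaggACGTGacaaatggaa

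Cores were thus present in windows of Egln3, higher in Mir by mean, and of Ankrd37, lower. Of the 2 Vegfa windows, the one at the outer start of the gene (46032328 to 46032627) held 0 cores. The one further inside the gene (46025114 to 46025413) held 2. A 5-base match is common and does not show that a factor binds there.

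Among transporters all 4 had a lower mean in Mir, and 0 passed the test. Slc2a1 (ENSMUSG00000028645, chromosome 4, 119108711 to 119137983, plus strand) encodes GLUT1, the glucose transporter of neural progenitors and, at a far higher level, of the endothelium at the blood-brain barrier. It was at 38.5, 37.4 and 60.2 CPM in Mir, against 52.7, 91.1 and 42.3 CPM in Scr, a log2 fold change of -0.45 ± 0.31 (edgeR adjusted p = 0.533). The spread was wide in both groups, with Mir replicate 3 and Scr replicate 2 highest in theirs. The log2 fold change was -0.07 without Scr replicate 2 and -0.72 without Mir replicate 3. Slc2a3, which encodes the neuronal transporter GLUT3, was at 4.32, 6.13 and 4.89 CPM in Mir and 6.31, 9.27 and 5.30 CPM in Scr (-0.44 ± 0.28, edgeR adjusted p = 0.506). The lactate carriers Slc16a1 and Slc16a3 had log2 fold changes of -0.15 ± 0.16 and -0.08 ± 0.44.

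Markers of endothelial cells moved with Slc2a1. The summed level of 12 endothelial markers was 5.47, 5.75 and 48.4 CPM in Mir replicates 1, 2 and 3, against 108, 259 and 17.9 CPM in Scr replicates 1, 2 and 3. Of the 11 that could be tested, 0 had a higher mean in Mir, and their median log2 fold change was -2.47, with 0 called by edgeR or DESeq2 and 3 lower at an unadjusted edgeR p under 0.05. In Mir replicates 1 and 2, 7 of the 12 had 0 counts, Pecam1, Cdh5, Tie1, Cldn5 and Emcn among them in both. The 3 libraries with the most Slc2a1 (Scr replicate 2, Mir replicate 3 and Scr replicate 1) were also the 3 with the highest endothelial sum, and Scr replicate 3 had rank 4 in both. This order was not particular to endothelium, since the sum of pericyte markers ranked the libraries exactly as the endothelial sum did. Scr replicate 2 was also the highest for the sums of inhibitory neuron and erythroid markers. With the endothelial level as a covariate, the Slc2a1 log2 fold change was 0.23 ± 0.18 (edgeR adjusted p = 0.807), turned from the -0.45 without it. Under the same fit Vegfa was at 0.77 ± 0.12 (adjusted p = 0.548), Ankrd37 at -0.60 ± 0.32 (adjusted p = 0.725) and Egln3 at 0.43 ± 0.26 (adjusted p = 0.752). In bulk samples, fewer cells of a type and less RNA per cell cannot be told apart.

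**Figure D3:**
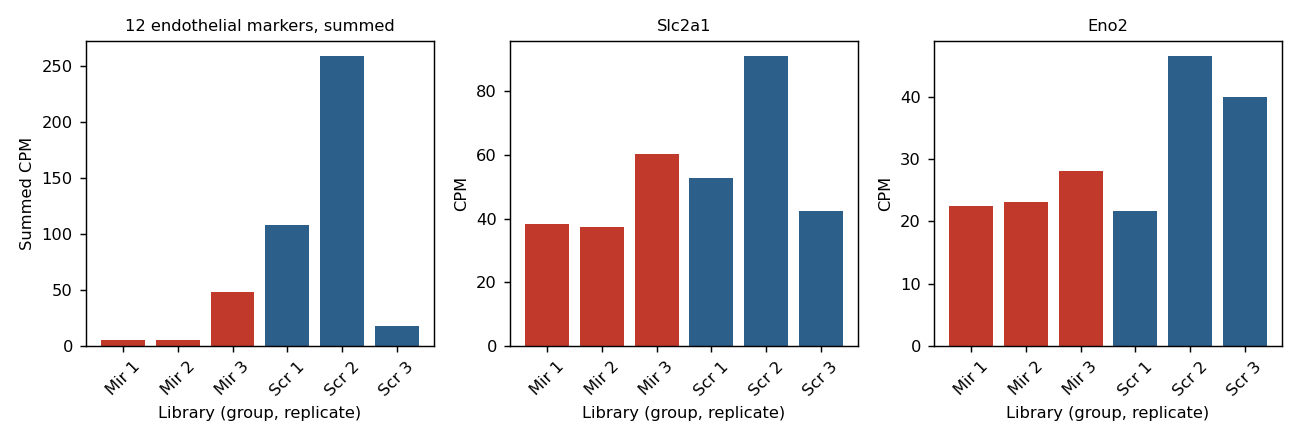
Summed CPM of 12 endothelial markers, CPM of Slc2a1 and CPM of Eno2 in each library, Mir replicates in red on the left and Scr replicates in blue on the right of each panel. Scr replicate 2 is the highest library in all 3 panels, while Scr replicate 3, low in endothelial markers, is high in Eno2.

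Enzymes of upper glycolysis were split evenly, with 4 of 8 higher and 4 lower by mean and every log2 fold change between -0.42 and 0.25. Hk2, the hexokinase induced by hypoxia and used by progenitors, was at 7.19, 7.92 and 11.8 CPM in Mir and 6.62, 8.98 and 14.1 CPM in Scr (-0.15 ± 0.33). The range of the Scr libraries enclosed that of the Mir libraries. Hk1, the constitutive hexokinase, averaged 35.1 ± 0.153 CPM in Mir and 41.0 ± 10.4 CPM in Scr, where Scr replicate 2 stood at 52.9 CPM. Of the subunits of phosphofructokinase, which commits sugar to glycolysis, Pfkl (the liver form) averaged 175 ± 5.61 CPM in Mir and 176 ± 21.4 CPM in Scr, and Pfkm (the muscle form) 57.1 ± 2.47 CPM in Mir and 52.2 ± 17.1 CPM in Scr. Pfkp, the platelet form, was at 25.2, 25.1 and 32.1 CPM in Mir, against 28.9, 53.1 and 28.2 CPM in Scr, a log2 fold change of -0.42 ± 0.26 (edgeR adjusted p = 0.496). Only Scr replicate 2 stood clear of the rest, and with the endothelial covariate the value was 0.07. Gpi1, Aldoa and Aldoc, an isomerase and 2 aldolases, had log2 fold changes of 0.05 ± 0.10, 0.00 ± 0.16 and 0.25 ± 0.23. Aldoa was thus the gene with the least difference of all 35, at 248 ± 43.7 CPM in Mir and 247 ± 41.4 CPM in Scr (SD, n = 3 each).

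Pfkfb3 and Pfkfb4 make and break fructose 2,6-bisphosphate, the activator of phosphofructokinase. Pfkfb3, the form with the strongest synthetic activity, was at 29.3, 36.3 and 26.8 CPM in Mir and 29.1, 48.4 and 31.1 CPM in Scr (-0.23 ± 0.22). Pfkfb4 averaged 9.68 ± 0.542 CPM in Mir and 8.73 ± 0.844 CPM in Scr (0.15 ± 0.18).

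Enzymes of lower glycolysis had higher means in Mir for 5 of 7, by less than the range of the Scr libraries. Pgk1, phosphoglycerate kinase, was at 85.3, 81.4 and 81.8 CPM in Mir, against 59.5, 64.5 and 84.4 CPM in Scr (log2 fold change 0.25 ± 0.14, edgeR adjusted p = 0.437). Scr replicate 3 reached the Mir level and the other 2 Scr libraries were lower. Eno1, the enolase of most tissues, was at 163, 148 and 159 CPM in Mir and 112, 133 and 163 CPM in Scr (0.20 ± 0.14, edgeR adjusted p = 0.535), with Scr replicate 1 again lowest and Scr replicate 3 as high as Mir. Tpi1, triose phosphate isomerase, was at 224 ± 6.09 CPM in Mir and 202 ± 47.9 CPM in Scr, and Pkm, pyruvate kinase, at 805 ± 21.1 CPM in Mir and 760 ± 69.6 CPM in Scr (SD, n = 3 each). Pgam1, a phosphoglycerate mutase, had a log2 fold change of 0.08 ± 0.17. Eno2, the enolase of neurons, ran the other way, at 22.5, 23.2 and 28.0 CPM in Mir and 21.7, 46.6 and 40.0 CPM in Scr (-0.56 ± 0.27, edgeR adjusted p = 0.389). Scr replicate 1 was as low as the Mir libraries and the other 2 Scr libraries were higher.

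The list for excitatory cortical neurons also held genes shared by other neurons, such as Tubb3, Map2 and Dcx. It had lower means in Mir for 11 of 16 and higher for 5, a median log2 fold change of -0.31. Within it Stmn2 was at -1.30 and Mef2c at -1.24, but Neurod6 at -0.13, Tbr1 at 0.04, Neurod2 at 0.08 and Slc17a6 at 0.14. Markers of inhibitory neurons had lower means for 13 of 13, a median of -1.65. edgeR called 0 of either list. At an unadjusted edgeR p under 0.05 there were 0 higher and 5 lower, and 0 higher and 10 lower, and DESeq2 called 1 and 2 of them lower. The sum of 14 inhibitory neuron markers was 202, 192 and 443 CPM in Mir and 338, 1285 and 480 CPM in Scr, so Scr replicates 2 and 3 were the 2 highest libraries, as for Eno2. The part of neurons in the Eno2 level was not tested.

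Gapdh, glyceraldehyde-3-phosphate dehydrogenase and a common reference gene, was listed at only 3.50, 3.77 and 10.2 CPM in Mir and 5.45, 6.66 and 5.96 CPM in Scr (-0.05 ± 0.43). Per kb of exon it ranked 33 of the 35 genes, at 1.41 ± 0.924 CPM per kb in Mir and 1.46 ± 0.147 CPM per kb in Scr. Of the 50-base words of its main transcript, the length of a read, 90.4% also occur in other annotated genes. Of the words of all its transcripts together, 52 genes each share at least 5%. Where a read can match several genes its assignment is open, and the Gapdh value is reported as uncertain. The same share was 72.2% for Eno1, 68.0% for Pgk1, 62.5% for Bnip3, 41.5% for Pgam1 and 34.4% for Pkm, while 17 of the 35 genes shared no word. The deposited tables listed 39.3 to 44.4% of reads as not uniquely aligned. Levels of these genes are likewise uncertain. Gapdh varied 2.93-fold among Mir libraries, with Mir replicate 3 high, and was at -0.74 without that library.

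Genes at the branch of pyruvate had higher means in Mir for 2 of 5. Ldha, the lactate dehydrogenase subunit that favours lactate, was at 407, 401 and 465 CPM in Mir and 264, 380 and 522 CPM in Scr (log2 fold change 0.13 ± 0.22). Scr libraries differed 1.98-fold from each other and Mir libraries 1.16-fold, so the group means, 424 ± 35.2 CPM in Mir and 389 ± 130 CPM in Scr, differ by less than the Scr spread. Ldhb averaged 318 ± 26.3 CPM in Mir and 305 ± 38.1 CPM in Scr. Pdk1, a kinase induced by HIF that shuts pyruvate dehydrogenase, was at 13.9, 15.7 and 15.3 CPM in Mir and 13.6, 22.5 and 15.4 CPM in Scr (-0.20 ± 0.21), and Pdk3 had a log2 fold change of -0.17 ± 0.14. Pdha1 (ENSMUSG00000031299, X chromosome, 160122209 to 160138413, minus strand) encodes the catalytic subunit of pyruvate dehydrogenase that these kinases phosphorylate. It was at 135, 127 and 117 CPM in Mir and 137, 136 and 152 CPM in Scr, a log2 fold change of -0.16 ± 0.09 (edgeR adjusted p = 0.461). All Mir libraries were below all Scr libraries, by a narrow margin. Of the 50-base words in the main Pdha1 transcript, 16.9% also occur in other annotated genes, mainly Map3k15, so reads from there are uncertain.

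Both genes with an 8mer for miR-3607, Ankrd37 and Pdha1, were thus among the 3 genes whose Mir libraries lay below all Scr libraries. Over all tested genes with a 3′ untranslated region, 56 of the 339 with an 8mer lay below in this way (16.5%), against 10.3% of the genes without. Their median log2 fold change was -0.05 with an 8mer and -0.00 without. The 4 genes with a shorter match had log2 fold changes of -0.15 (Hk2), 0.25 (Aldoc), 0.15 (Tpi1) and -0.08 (Slc16a3), to both sides. With 2 genes and no test, this is a description, and whether the hairpin acts on either transcript was not tested. Shared words make up 11.4% of the main transcript of Ankrd37 and 16.9% of that of Pdha1, so both levels are partly uncertain.

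Per kb of exon, with all exons of a gene joined, the highest levels listed were those of Ldhb, Pkm, Ldha, Aldoa and Tpi1. Ldhb was at 202 ± 16.7 CPM per kb in Mir and 194 ± 24.2 CPM per kb in Scr, Pkm at 161 ± 4.22 CPM per kb in Mir and 152 ± 13.9 CPM per kb in Scr, and Ldha at 128 ± 10.6 CPM per kb in Mir and 117 ± 39.1 CPM per kb in Scr (SD, n = 3 each). The order of Ldha and Pkm is not separated beyond the spread in Scr. Per kb of the main transcript, a length tried after seeing the data, the same 5 genes led but Pkm came first, at 331 ± 8.68 CPM per kb in Mir and 313 ± 28.6 CPM per kb in Scr, and Ldhb next, at 244 ± 20.2 CPM per kb in Mir and 234 ± 29.2 CPM per kb in Scr. Gapdh, Eno1 and Pgk1, most of whose words are shared, cannot be placed in this order. The 5 leading genes share a smaller part, so their own order is uncertain too. Their shares of main transcript words were 34.4% for Pkm, 27.0% for Ldhb, 16.65% for Ldha, 13.5% for Aldoa and 7.51% for Tpi1. At the low end stood Slc2a3, at 0.706 ± 0.128 CPM per kb in Mir and 0.961 ± 0.285 CPM per kb in Scr, and Slc16a3, below 1 CPM per kb in both groups. Per kb of joined exons, Hif1a, Egln1 and Pdha1 lay within 3 CPM per kb of each other over all libraries, at 38.3, 37.2 and 35.8 CPM per kb. Per kb of the main transcript they were at 47.7, 37.2 and 47.0 CPM per kb, so their nearness depended on the length used.

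Libraries of the Scr group differed more among themselves than those of the Mir group for most of these genes. The standard deviation of log2 levels was larger in Scr than in Mir for 27 of the 35 genes (77.1%), against 55.9% of all genes tested and 58.3% of the 12244 genes at or above the level of the lowest member. Its median over the 35 was 0.12 in Mir and 0.26 in Scr, and over all genes tested 0.18 in Mir and 0.21 in Scr. Scr replicate 1 was the lowest of the 6 libraries for 17 of the 35 genes (48.6%), against 14.1% of all genes tested. The highest library was Scr replicate 2 for 12 genes and Scr replicate 3 for 9, against 4263 and 2447 of the 16897 genes tested. The summed level of 17 glycolytic enzymes and lactate dehydrogenase subunits was 2772, 2777 and 2948 CPM in Mir replicates 1, 2 and 3, against 2335, 2644 and 3081 CPM in Scr replicates 1, 2 and 3. So the lowest and the highest library for glycolysis were both Scr libraries, and the means, 2832 ± 100 CPM in Mir and 2687 ± 374 CPM in Scr, differed by less than the Scr spread. Scr replicate 1 also had the fewest counts in genes and Scr replicate 3 the most, and Scr replicate 2 had the highest sums of endothelial, pericyte and inhibitory neuron markers. The part of depth or of cell makeup in this spread was not tested.

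Ratios of paired isozymes within a library, which do not depend on how libraries are scaled, set 3 of 10 pairs apart. The log2 ratio of Eno1 to Eno2 was 2.85, 2.68 and 2.51 in Mir, against 2.37, 1.51 and 2.03 in Scr, a difference of 0.71 with no overlap. The log2 ratio of Pfkp to Pfkm was -1.22, -1.22 and -0.76 in Mir, against -0.54, -0.44 and -0.59 in Scr, a difference of -0.54 with no overlap. For Pfkfb3 to Pfkfb4 it was 1.62, 1.82 and 1.54 in Mir, against 1.83, 2.32 and 1.90 in Scr, a difference of -0.36 with a narrow gap, and -0.21 without Scr replicate 2. The share of non-overlapping pairs was not set against a background, and 3 libraries against 3 cannot give an exact permutation p below 0.1. The other 7 pairs overlapped, with differences of 0.09 for Hk2 to Hk1, 0.11 for Ldha to Ldhb, 0.01 for Slc2a1 to Slc2a3, 0.00 for Pdk1 to Pdk3, 0.14 for Slc16a3 to Slc16a1, -0.18 for Pfkl to Pfkm and -0.21 for Aldoa to Aldoc. Eno2 is known from neurons and Eno1 from progenitors and most other cells. The Eno1 to Eno2 ratio was lowest in Scr replicate 2, the library with the highest sums of the excitatory list and of inhibitory neuron markers. That library was the highest for 11 of the 16 genes of the excitatory list but the lowest for Slc17a6, at 130 CPM. Among Scr libraries it was also the lowest for Neurod6, at 2003 CPM against 2378 and 2274 CPM in Scr replicates 1 and 3. Of the Eno1 words 72.2% also occur in other genes, so the Eno1 to Eno2 ratio is uncertain as well. The part of neurons in this ratio was not tested.

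**Figure D4:**
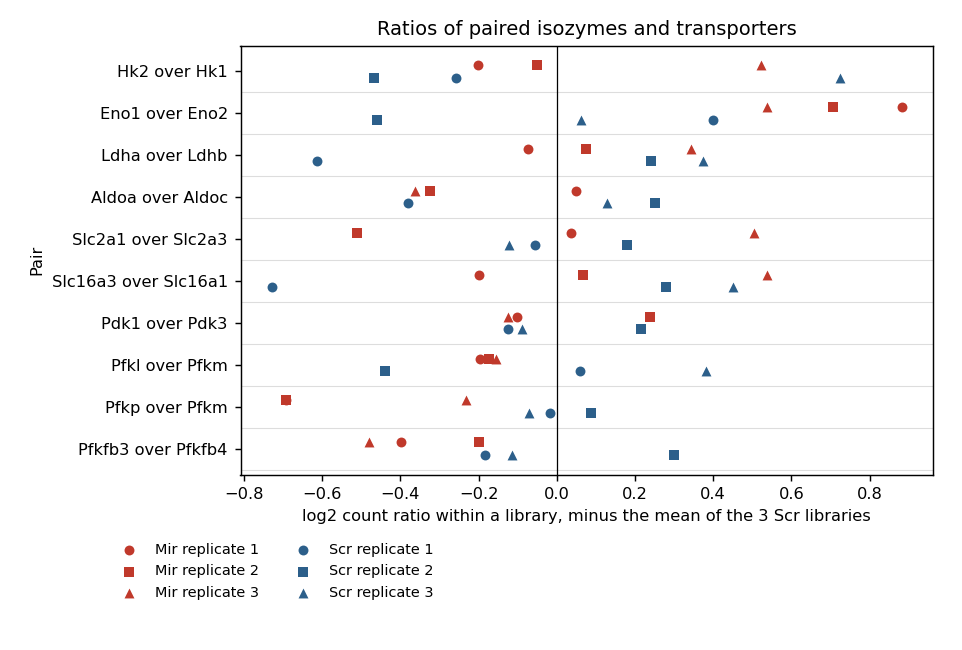
Log2 count ratio of 10 pairs of isozymes or transporters within each library, minus the mean of the 3 Scr libraries, Mir in red above Scr in blue in each row. Mir symbols lie to the right of all Scr symbols for Eno1 over Eno2, and to the left for Pfkp over Pfkm and Pfkfb3 over Pfkfb4.

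Related genes outside the 35 showed no common direction either, with 0 genes called by edgeR in any of the 6 pathway lists read beside them. Of 25 other glycolysis genes, 18 could be tested, 9 of them higher and 9 lower by mean, with a median log2 fold change of 0.01. At an unadjusted edgeR p under 0.05, 1 was higher and 0 were lower. This was Pcx, pyruvate carboxylase, which feeds pyruvate into the citric acid cycle, at 43.5, 46.6 and 43.1 CPM in Mir and 33.1, 30.2 and 29.9 CPM in Scr (0.52 ± 0.10, adjusted p = 0.186 in edgeR and 0.00625 in DESeq2). Next in order of p came Pfkfb1, a further bifunctional enzyme of fructose 2,6-bisphosphate, at 5.00 ± 1.42 CPM in Mir and 3.07 ± 0.921 CPM in Scr (0.71 ± 0.33, edgeR adjusted p = 0.385).

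Genes that carry pyruvate into the mitochondrion or control its oxidation numbered 11, with 5 higher and 6 lower by mean, a median of -0.02, and 1 higher and 1 lower at an unadjusted edgeR p under 0.05. Mpc1, a subunit of the mitochondrial pyruvate carrier, was at 13.7, 13.0 and 13.1 CPM in Mir, against 20.9, 26.6 and 33.5 CPM in Scr. All 3 Mir libraries were nearly equal and lay below every Scr library, while the Scr libraries differed from each other. The log2 fold change was -1.02 ± 0.19, with an adjusted p of 0.171 in edgeR and 0.000678 in DESeq2. Its partner subunit Mpc2 was at 98.9, 95.5 and 94.9 CPM in Mir and 102, 103 and 108 CPM in Scr (-0.11 ± 0.08, edgeR adjusted p = 0.553), a gene named for its partner after its values were seen. Dlat, the acetyltransferase of pyruvate dehydrogenase, was at 129, 119 and 113 CPM in Mir and 104, 106 and 91.5 CPM in Scr (0.26 ± 0.10, edgeR adjusted p = 0.299). Of the 11 genes 5 had no overlap between the groups (45.5%, against 20% of all genes tested), with Mpc1, Mpc2 and Pdp2 below in Mir and Pdhb and Dlat above. Pdhb and Pdp2 are named here after their values were seen.

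Of 16 genes of the citric acid cycle, 8 were higher and 8 lower by mean, with a median of 0.00, and 2 were higher and 0 lower at an unadjusted edgeR p under 0.05, with 0 called by DESeq2. Ogdh, a subunit of 2-oxoglutarate dehydrogenase, was at 147 ± 10.5 CPM in Mir and 110 ± 16.3 CPM in Scr (0.41 ± 0.12, edgeR adjusted p = 0.240). Of 7 genes of the pentose phosphate pathway 2 were higher and 5 lower by mean, with a median of -0.07, and 1 was higher and 1 lower at an unadjusted edgeR p under 0.05, with 0 called by DESeq2. These were Pgd (0.31 ± 0.13) and Rpia (-0.51 ± 0.22), with edgeR adjusted p-values of 0.335 and 0.333.

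Regulators of HIF numbered 15, with 5 higher and 10 lower by mean, a median of -0.04, and 0 at an unadjusted edgeR p under 0.05 or called by DESeq2. Epas1, which encodes HIF-2α and is known from endothelium, had 0 counts in Mir replicates 1 and 2 and 1.76 CPM in Mir replicate 3, against 3.74, 11.7 and 0.542 CPM in Scr (edgeR adjusted p = 0.377). Its libraries rank as the endothelial sum does, with Scr replicate 2 highest. Hif3a, a HIF paralog that can act as an inhibitor, was at 2.29 ± 0.723 CPM in Mir and 3.62 ± 0.990 CPM in Scr (-0.65 ± 0.35, edgeR adjusted p = 0.429).

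Other targets of hypoxia numbered 40, of which 34 could be tested. Of these, 16 were higher and 18 lower by mean, with a median of -0.01. At an unadjusted edgeR p under 0.05, 3 were higher and 6 lower, and DESeq2 called 2 higher and 2 lower. Stc2, a secreted glycoprotein, was at 12.7, 13.9 and 7.19 CPM in Mir, against 5.53, 4.13 and 4.34 CPM in Scr (1.27 ± 0.29, adjusted p = 0.206 in edgeR and 0.0101 in DESeq2). Tfrc, the transferrin receptor, was at 31.4, 27.3 and 30.2 CPM in Mir, against 37.6, 45.3 and 44.2 CPM in Scr (-0.51 ± 0.12, adjusted p = 0.212 in edgeR and 0.0225 in DESeq2). Like the 6 targets among the 35, these went to both sides. The targets Car9, Epo and Nos2, among the textbook genes of hypoxia, were too low to be tested.

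Lists of cell state and of cell types were read beside these results, and edgeR called 0 genes in each. Of 12 genes of the integrated stress response, 8 had higher means in Mir, with a median of 0.25, 1 of them at an unadjusted edgeR p under 0.05 and 0 called by DESeq2. Their sum was 506, 538 and 1115 CPM in Mir replicates 1, 2 and 3. In Scr replicates 1, 2 and 3 it was 913, 549 and 553 CPM. Mir replicate 3 was the highest library for 7 of the 12 genes. Ppp1r15a, a phosphatase subunit that ends this response, had a log2 fold change of 0.30 ± 0.12 (edgeR adjusted p = 0.312), and Ddit3, a factor induced by it, -0.26 ± 0.16 (edgeR adjusted p = 0.502). Immediate early genes, of which 10 of 13 could be tested, had higher means for 9, with a median of 0.66, 6 higher at an unadjusted edgeR p under 0.05 and 3 called higher by DESeq2. Their summed level was 851, 1007 and 427 CPM in Mir replicates 1, 2 and 3 and 421, 368 and 396 CPM in Scr, with Jun at 0.63 ± 0.12 and Egr1 at 2.52 ± 0.64 (edgeR adjusted p = 0.178 and 0.214). Mean levels were higher for 13 of 15 radial glia markers (median 0.23), 12 of 12 intermediate progenitor markers (0.42) and 3 of 4 tested meningeal markers (1.73). They were higher for 1 of 7 pericyte markers (-1.56), 1 of 11 microglial markers (-1.46), 1 of 6 erythroid markers (-1.24), 0 of 5 markers of Cajal-Retzius cells (-0.34), and 0 of 1 choroid plexus marker (-0.32). At an unadjusted edgeR p under 0.05, 1 radial glia and 5 intermediate progenitor markers were higher, and 2 pericyte, 1 microglial and 1 Cajal-Retzius markers were lower. DESeq2 called 1 radial glia and 3 intermediate progenitor markers higher and 1 Cajal-Retzius marker lower. Pericyte markers summed to 8.01, 32.3 and 49.6 CPM in Mir and 77.8, 144 and 33.4 CPM in Scr. The meningeal sum was 1.02, 221 and 9.91 CPM in Mir and 16.1, 29.0 and 10.8 CPM in Scr, so Mir replicate 2 alone was high. The part of these cells in the levels of Vegfa, Slc2a1 and the glycolytic enzymes was not tested.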

How the data were processed

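Per the labels' protocols, RNA of sorted cells (integrity number above 9.5) was amplified by SMART-seq v4, a kit without strand marking, and read as 50 bp single reads. The values are whole-number counts of reads per gene, deposited by the authors without normalization, 1 table per library. HISAT2 2.1.0, HTSeq 0.11.0 and DESeq2 1.18.1 on mm10 (GRCm38) are named in the submitters' processing notes. Neither annotation nor strand setting is given in the sources used here. From 21.9 to 23.6% of the listed reads were assigned to genes. The lines that name no gene (28.8 to 31.6% no feature, 0.357 to 0.376% ambiguous, 4.48 to 5.48% not aligned, 39.3 to 44.4% not unique) stayed out of library sizes and tests.

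Symbols came from GENCODE M21 on GRCm38 (54079 of 54146 identifiers had one). Aldoa had 2 identifiers and the one of the known gene was kept (ENSMUSG00000030695). edgeR 4.0.16 (R 4.3.3) gave a two-sided quasi-likelihood F test, with TMM factors of 0.992 to 1.01, the filterByExpr filter (16897 genes tested), group as the sole term and a threshold of 0.05 after Benjamini-Hochberg adjustment. The biological coefficient of variation was 23.6%. Standard errors come from the F statistic. DESeq2 1.42.0 (3612 genes without an adjusted p) and limma 3.58.1 were alternatives, with other scalings, filters, a replicate block, an endothelial covariate and each library left out in turn. The fit was checked on simulated counts. Libraries of a group differed by a chi-square per degree of freedom of 7.69 to 25.6, so none repeated another. The 95% intervals of fold changes come from the edgeR fit and its spread between libraries.

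The members, the 8 lists of pathways and states and the 11 marker lists were chosen with earlier results of these data known. Values in every library are given for the 12 members with the smallest edgeR p, each member without overlap and Hif1a, Hk2, Pfkfb3, Ldha, Pdk1, Bnip3 and Ddit4 for their role. The 2 genes of smallest p are named from each pathway or state list, except 1 that is not reported here. Shared words are 50-base stretches of the main transcript found in transcripts of other annotated genes. The count of genes that share words with Gapdh was taken over all its transcripts.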

Additional observations from a re-analysis of the deposited data

How the results depend on the processing

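The edgeR count of the 35 genes stayed at 0 higher and 0 lower under every alternative run, and DESeq2 called 1 lower. Over all genes, edgeR called 15 higher and 16 lower without a filter on low counts and 10 higher and 19 lower without Scr replicate 2 and Mir replicate 3, against 0 and 1 before. DESeq2 called 247 higher and 333 lower, and limma-voom, the replicate block and the endothelial covariate called 0 lower. Leaving out single libraries gave 0 to 2 lower. DESeq2 refitted without single libraries, a choice made after seeing the data, called 0 to 2 of the 35 higher and 0 to 2 lower: Eno2 and Ankrd37 lower without Scr replicate 1 (adjusted p 0.00240 and 0.0314), Pfkm higher without Scr replicate 2 (0.0223), and Pgk1 and Egln3 higher without Scr replicate 3 (0.0385 and 0.0407). Without both Scr replicate 2 and Mir replicate 3 it called 1 higher, Kdm3a (0.0142), and 0 lower. In these refits it called 0.354 to 2.84% of all genes higher and 0.555 to 4.68% lower. Genes without overlap numbered 2 to 8 above and 3 to 7 below when 1 library was left out (20 to 31.4% of the 35 in both directions, against 26.0 to 37.1% of all genes), and 6 above and 6 below without Scr replicate 2 and Mir replicate 3, where 50.0% of all genes had no overlap.

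The labels state no pairing of same-numbered libraries, whose deviations from their group means correlated at 0.25, -0.15 and -0.09. With 3 libraries per group, these values cannot tell whether the numbers pair libraries. With the replicate block 0 of the 35 were called, and the median log2 fold change was 0.00.

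Of 35 genes, 15 kept the sign of their log2 fold change under every setting, Hif1a, Egln3, Vegfa, Ankrd37, Hilpda, Kdm3a, Eno1, Eno2 and Pgk1 among them. With the endothelial covariate the sign turned for Slc2a1 (0.23), Gpi1 (-0.0058), Pfkp (0.066), Tpi1 (-0.044), Gapdh (0.40), Pgam1 (-0.15), Ldha (-0.0088), Ldhb (-0.099), Pdk1 (0.017), Slc16a1 (0.029), Slc16a3 (0.13), Bnip3 (-0.11) and Egln1 (0.030). It also turned for Pfkl without a filter (0.0078), and for Aldoa with at least 50 counts in 3 libraries (-0.0074) and with limma-voom (-0.0031). Leaving out 1 library in turn, or Scr replicate 2 with Mir replicate 3, gave ranges that cross zero for Hk1 (-0.34 to 0.00041), Hk2 (-0.46 to 0.21), Gpi1 (-0.031 to 0.12), Pfkl (-0.11 to 0.071), Pfkm (-0.0027 to 0.46), Aldoa (-0.17 to 0.15), Aldoc (-0.12 to 0.45), Gapdh (-0.74 to 0.23), Pgam1 (-0.042 to 0.30), Ldha (-0.092 to 0.41), Ldhb (-0.042 to 0.12), Pdk1 (-0.34 to 0.042), Slc16a3 (-0.47 to 0.14), Egln1 (-0.088 to 0.012) and Pfkfb3 (-0.37 to 0.12). The cause was not tested, and the endothelial covariate is partly confounded with group. The 3 pairs of isozymes without overlap kept their sign with 5 counts added and with each library left out.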
